A study of Caenorhabditis elegans with 4 samples.

Results

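Broad LIN-11 regions were the peaks of the deposited list that spanned at least 1000 bp. They were chosen by their width, end minus start plus 1, and 242 of the 2381 peaks (10.2%) met this rule, on all 6 chromosomes. Narrower peaks numbered 2139. LIN-11 is a transcription factor of the LIM homeodomain family in the nematode Caenorhabditis elegans, where it is known to pattern vulval cells and to specify several neuron types. In chromatin immunoprecipitation and sequencing (ChIP-seq), DNA bound to a tagged protein is recovered and sequenced, and a peak is a stretch of genome with more tags than in input DNA. A wide peak can hold a spread-out signal or several binding sites close together, and a list of starts and ends does not separate these cases.

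All 4 libraries came from strain OP62, hermaphrodites at the L2 larval stage. The strain carried the allele unc-119(ed3) on chromosome III and the transgene wgIs62, which supplies unc-119(+) and a lin-11 gene tagged with TY1, EGFP and 3xFLAG. Per the labels the transgene was made by recombineering and introduced by bombardment, and the genotype lists no mutation of the worm's own lin-11 gene. ChIP DNA, recovered with an antibody against GFP, and input DNA had 2 libraries each. The libraries came from whole larvae, although the shared protocol text speaks of embryos at the lysis step, so a peak does not say in which cells the protein was bound. The list combines them and gives each peak a position and 1 q-value, so no value belongs to a replicate, no spread between cultures can be given, and the depth is unknown. Positions are on WormBase WS180, and genes and sequences at the peaks are not given, since no genome of that build was used here.

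Broad peaks made up a small part of the list by number and a larger part of the sequence under peaks. They covered 385.6 kb, or 30.4% of the 1266.3 kb under all peaks. Their median width was 1391.5 bp, and the middle 50 percent spanned 1120.5 to 1781.2 bp. Narrower peaks had a median of 371 bp. Most were only moderately wide: 140 (57.9%) spanned 1000 to 1500 bp, 56 spanned 1500 to 2000 bp, 37 spanned 2000 to 3000 bp, and 9 were wider. Widths showed no break at the threshold, with 57 peaks of 900 to 1000 bp and 53 of 1000 to 1100 bp.

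**Figure D1:**
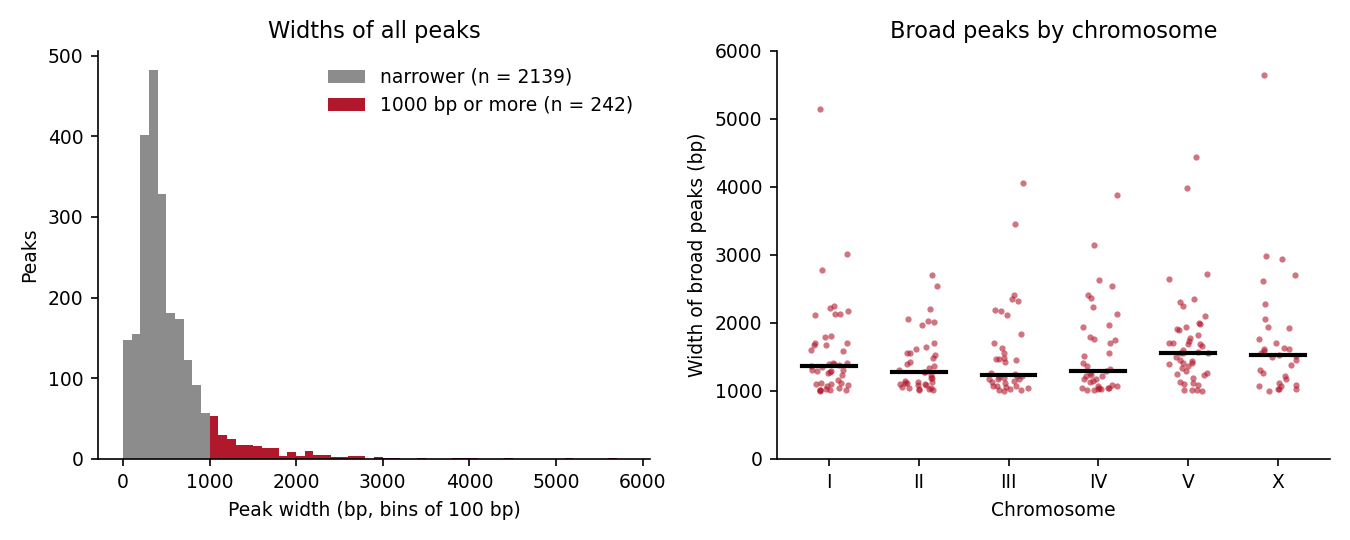
Left, the number of peaks by width in bins of 100 bp, with the 2139 narrower peaks in grey and the 242 peaks of at least 1000 bp in red. Right, the width in bp of each broad peak (points) by chromosome, with the median as a bar; medians ran from 1231.5 bp on III to 1561 bp on V, and the widest peak, 5646 bp, was on X.

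The peaks at the threshold itself were unremarkable. The 5 just inside were 1000 bp on X at 10187903 to 10188902, 1003 bp on III at 12557699 to 12558701, 1004 bp on both I at 13951620 to 13952623 and V at 10715212 to 10716215, and 1005 bp on I at 7474717 to 7475721. Their q-values ran from 9.25e-22 to 0.00717. The 5 just outside were 999 bp on X at 4982060 to 4983058, 995 bp on I at 4769376 to 4770370 and on IV at 2998394 to 2999388 and 16656199 to 16657193, and 994 bp on I at 4701033 to 4702026. Their q-values ran from 2.49e-19 to 0.00236, within the range of those just inside.

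The widest peaks were spread over the chromosomes and differed widely in q-value. The widest of all, on X from 6738549 to 6744194, spanned 5646 bp. Its q-value was 4.54e-05, and 890 peaks of the list had a lower one. A peak of 5149 bp on chromosome I, from 7078887 to 7084035, had a q-value of 1.32e-36. A peak of 4434 bp on V, from 723804 to 728237, had a q-value of 1.45e-63. The widest peak of III spanned 4059 bp at 8443595 to 8447653 (q-value 1.17e-08), and that of IV spanned 3881 bp at 17278188 to 17282068 (q-value 7.79e-40). Chromosome II had no peak of that size, and its widest, from 9059866 to 9062570, spanned 2705 bp (q-value 3.98e-13). The remaining 5 of the 10 widest were 2976 to 3977 bp wide. In 2 of the 10, another broad peak lay close by: 318 bp from the peak of 5149 bp on I, and 273 bp from one of 3452 bp on III at 12614005 to 12617456. Width alone therefore did not order these peaks by q-value.

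Broad peaks had lower q-values than narrower ones, as a description only, since PeakSeq takes both the width and the q-value from the same tags. The median q-value was 1.02e-07 in broad and 5.64e-04 in narrower peaks. Of the broad peaks, 83 (34.3%) had a q-value below 1e-10, against 8.60% of narrower peaks. The 238 lowest q-values of the list belonged to 72 broad and 166 narrower peaks. The 10 lowest q-values of the whole list all belonged to broad peaks, from 6.93e-72 (X at 16929352 to 16931972) to 1.32e-36. Weak broad peaks occurred too, with 32 (13.2%) above 0.001, against 951 narrower peaks (44.5%). The 5 highest q-values among the broad peaks, 0.00679 to 0.00986, belonged to peaks of 1003 to 1570 bp on II, III, V and X.

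Within the broad peaks, width and q-value were loosely related. Over the 242 peaks, Pearson's r between width and minus log10 of the q-value was 0.294 and Spearman's rho 0.143, with both measures taken from the same tags. When the peaks were divided into 4 groups by width, the median q-value was 2.31e-08 in the narrowest (1000 to 1120 bp), 9.53e-08 and 9.49e-07 in the middle groups, and 1.81e-09 in the widest (1784 to 5646 bp). Chromosomes differed more. Broad peaks of chromosome I had a median q-value of 6.59e-12, and 25 of 45 lay below 1e-10. Those of chromosome II had a median of 4.51e-05, and 7 of 40 lay below 1e-10. The medians of III, IV, V and X lay between, from 8.43e-09 on X to 6.66e-06 on V. Differences in q-value between chromosomes were not tested.

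Chromosome V held the highest share of broad peaks and chromosome I the lowest, and neither difference held once the 6 chromosomes were counted as a family. Intervals given with shares and odds ratios are exact 95% intervals. They cover counting error over peaks; neighbouring peaks are not independent, so the intervals may be too narrow. On chromosome V, 47 of 346 peaks were broad, 13.6% (10.2 to 17.7%), and on chromosome I 45 of 575, 7.83% (5.77 to 10.3%). The odds ratio of broad against narrower peaks was 1.48 (1.03 to 2.10) for V and 0.694 (0.483 to 0.979) for I. With intervals widened to 99.2% for 6 comparisons, both included 1 (0.908 to 2.35 and 0.425 to 1.09). For V the 95% interval excluded 1 with a width threshold of 1500 bp (2.09, 1.27 to 3.37), among the peaks of lower q-value (1.72, 1.12 to 2.59) and against narrower peaks of at least 400 bp (1.54, 1.04 to 2.25), and included it with a threshold of 800 bp (1.24, 0.913 to 1.68). For I it excluded 1 among the peaks of lower q-value (0.598, 0.394 to 0.888) and included it with thresholds of 800 bp (0.794, 0.602 to 1.04) and 1500 bp (0.617, 0.340 to 1.06). With peaks less than 1000 bp apart merged, that of I was 1.01 (0.751 to 1.36) and that of V 1.27 (0.896 to 1.77). Merging gave 305 regions of 1000 bp or more, of which 88 joined narrower peaks only, so these values are not about the 242 broad peaks.

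The other chromosomes had shares between these. Broad peaks were 39 of 328 on IV (11.9%), 38 of 370 on III (10.3%), 40 of 397 on II (10.1%) and 33 of 365 on X (9.04%). Their odds ratios ran from 0.859 on X (0.566 to 1.27) to 1.23 on IV (0.831 to 1.78), and each interval included 1. Per Mb of the chromosome's extent, which is the end of its last peak, chromosome I still had the most broad peaks, 3.01 per Mb (exact Poisson 95% interval 2.20 to 4.03). X had the fewest, 1.87 per Mb (1.29 to 2.63). Chromosome V stood at 2.25 per Mb (1.66 to 3.00). Broad peaks made up 40.5% of the peak sequence on V and 24.9% on I, and 28.7 to 33.6% on the other chromosomes.

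**Figure D2:**
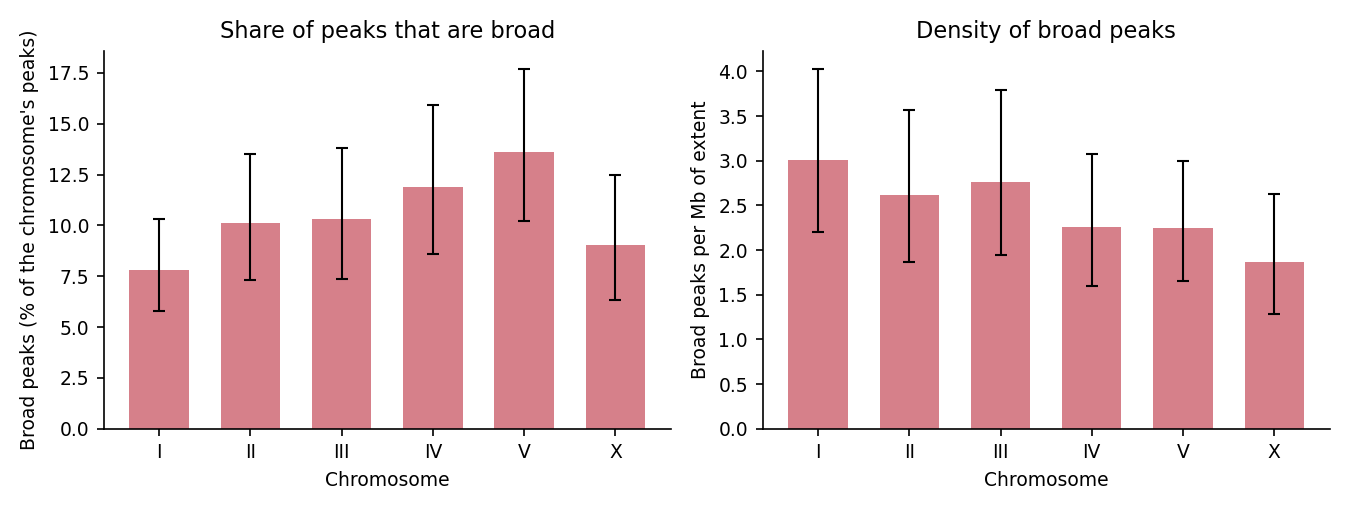
Left, broad peaks as a percentage of each chromosome's peaks, with exact 95% binomial intervals as error bars, from 7.83% on I to 13.6% on V. Right, broad peaks per Mb of the chromosome's extent, with exact Poisson 95% intervals, from 1.87 on X to 3.01 on I.

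Chromosome centres and arms were compared because the centres of worm autosomes are, as background, richer in conserved genes and the arms richer in repeats. Each chromosome was divided into 3 segments of equal length. The central segments of the 5 autosomes held 79 of 209 broad peaks, 37.8% (31.2 to 44.7%), and 574 of 1807 narrower peaks, 31.8% (29.6 to 34.0%). The odds ratio was 1.31 (0.957 to 1.77), and its interval included 1. It was 1.48 (1.10 to 2.00) when the centre was taken as the middle 50 percent of the chromosome. Without chromosome V, an alternative added after the data were seen, it was 1.45 (1.02 to 2.05). In the other alternatives it was below 1.31, and each interval included 1. The values were 1.12 with a width threshold of 800 bp and 1.11 with 1500 bp. They were 1.17 among the peaks of lower q-value, 1.18 against narrower peaks of at least 400 bp, 1.21 with close peaks merged, and 1.24 without I or without II. The central share was above that of narrower peaks on I, II, III and IV, and below it on V (34.0% against 38.1%).

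The left and right segments gave different values, and the difference between them was not tested. The left segments of the autosomes held 52 broad peaks, 24.9% (19.2 to 31.3%), and 34.0% of narrower peaks, an odds ratio of 0.644 (0.454 to 0.901). The right segments held 78 broad peaks, 37.3%, and 34.3% of narrower peaks, an odds ratio of 1.14 (0.838 to 1.55). Left and right segments were compared after the values were seen. On chromosome II, 4 of 40 broad peaks lay in the left segment (interval 2.79 to 23.7%), where 24.9% of its narrower peaks lay. On IV it was 11 of 39 (28.2%) against 48.1%. Chromosome V went the other way, with 17 of 47 (36.2%) against 30.4%, and without chromosome II the odds ratio was 0.699 (0.481 to 1.00). It was 0.781 (0.597 to 1.01) with a width threshold of 800 bp and 0.710 (0.412 to 1.18) with one of 1500 bp. Among the peaks of lower q-value it was 0.721 (0.479 to 1.07). No interval was widened for the number of segments. X held 11 broad peaks in each segment.

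**Figure D3:**
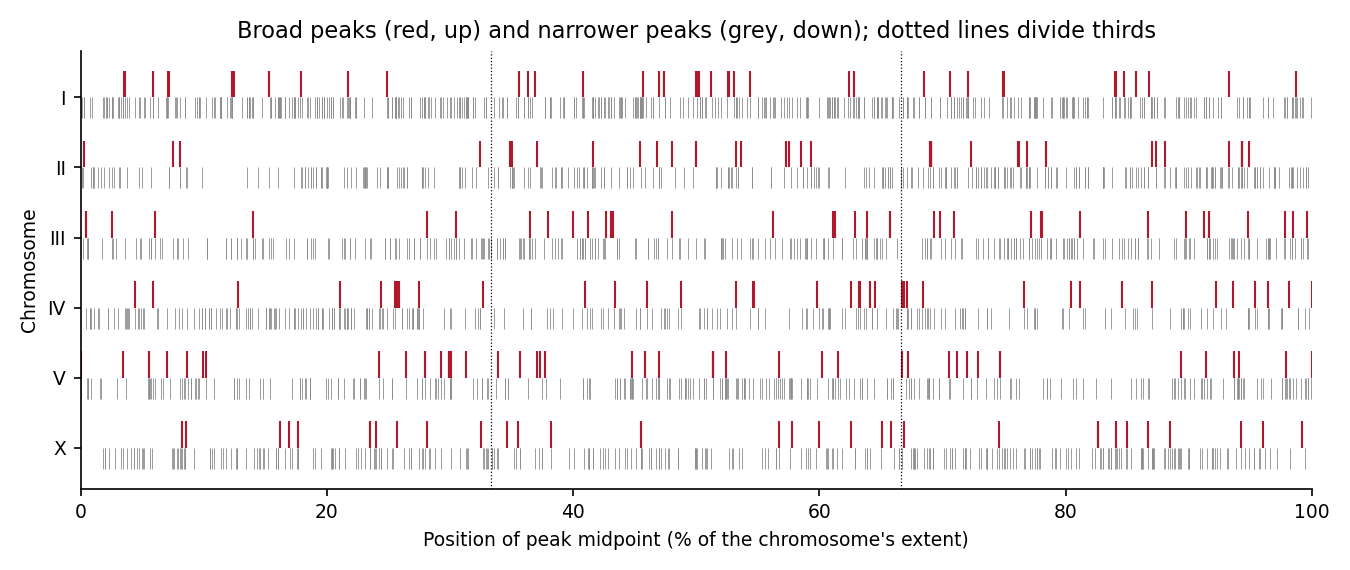
Midpoints of the 242 broad peaks (red, upward ticks) and of the 2139 narrower peaks (grey, downward ticks), as a percentage of each chromosome's extent; dotted lines divide the 3 segments. Chromosome II has 4 broad peaks in its left segment and 20 in its right, and X has 11 in each.

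The longest distances without a broad peak held narrower peaks, and they were picked for their length. On chromosome II no broad peak lay between 1237043 and 4941719, a distance of 3.70 Mb that held 67 narrower peaks. On chromosome V the same was true from 15569029 to 18637606, 3.07 Mb with 25 narrower peaks. On the other chromosomes the longest such distance was 1.43 to 1.98 Mb. As a whole, chromosome II held 357 narrower peaks in 15.3 Mb and chromosome V 299 in 20.8 Mb. Whether these distances held fewer broad peaks than their number of narrower peaks would give was not tested. In the 96 full bins of 1 Mb, broad peaks numbered 0 to 10, with a mean of 2.43, and 15 bins had none. The fullest bin, from 7 to 8 Mb on chromosome I, held 10 broad peaks among 36 peaks. The variance of these counts was 1.60 times their mean. It was not computed for narrower peaks, so it is not shown to be particular to broad ones.

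Broad peaks had another peak close by more often than narrower peaks. Distances were taken from edge to edge, because the midpoints of wide peaks lie farther apart by construction. The nearest peak of any width lay at a median of 4753 bp (exact 95% interval 3092 to 5793 bp) from a broad peak and 10117 bp (9424 to 10708 bp) from a narrower peak. Within 2000 bp, 92 of 242 broad peaks had a neighbour, 38% (31.9 to 44.5%), against 414 of 2139 narrower peaks, 19.4% (17.7 to 21.1%). The odds ratio was 2.55 (1.91 to 3.41). Peaks that are each other's neighbours enter this count more than once.

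The difference was clearest at the shortest distances. Within 1000 bp, 74 broad peaks had a neighbour, 30.6% (24.8 to 36.8%), against 243 narrower peaks, 11.4% (10 to 12.8%), an odds ratio of 3.43 (2.50 to 4.70). Among the peaks with none that near, 18 of 168 broad peaks (10.7%) and 171 of 1896 narrower peaks (9.02%) had one at 1000 to 2000 bp, an odds ratio of 1.21 (0.681 to 2.04). At 2000 to 5000 bp the odds ratio was 1.24 (0.811 to 1.87), at 5000 to 10000 bp 0.832 (0.489 to 1.36), and at 10000 to 20000 bp 0.765 (0.462 to 1.24). Beyond 1000 bp each interval was wide and included 1, so a difference there is neither shown nor excluded. With peaks less than 1000 bp apart merged before the width rule was applied, the odds ratio for a neighbour within 2000 bp was 1.47 (0.985 to 2.14). Merging removes the close neighbours by construction, so this value cannot show at which distances the difference lay. It also changes the members, to 305 regions of 1000 bp or more, of which 88 joined narrower peaks only. These distance classes were chosen after the data were seen. No gap in the list was under 202 bp. The caller sets both the widths and the gaps of its regions, and its part in the difference was not tested.

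**Figure D4:**
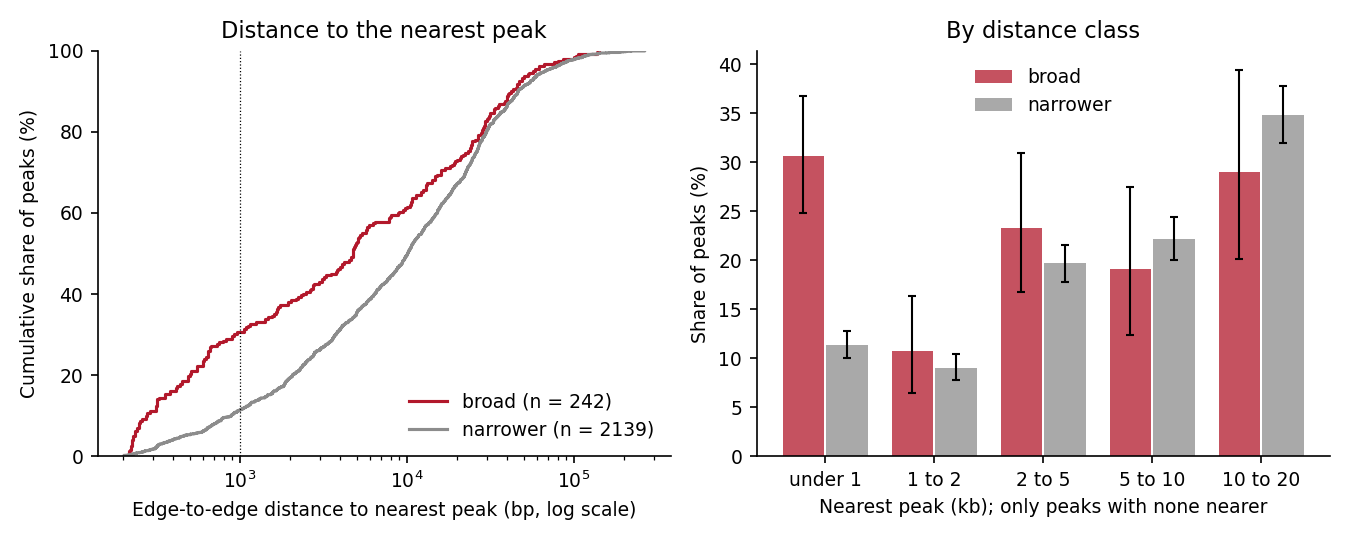
Left, cumulative share of broad (red, 242) and narrower (grey, 2139) peaks by the distance to the nearest peak in bp on a log scale, with a dotted line at 1000 bp. Right, by distance class, the share of peaks with their nearest neighbour in that class among peaks with none nearer, with exact 95% binomial intervals as error bars; the classes differ at under 1000 bp (30.6% and 11.4%) and have overlapping intervals beyond.

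The share with a neighbour within 1000 bp was higher in wide peaks, without rising at each step of width. It was 9.93% in the 302 peaks under 200 bp, 9.51% (7.66 to 11.6%) in the 883 peaks of 200 to 400 bp, 12.2% in the 509 of 400 to 600 bp, 15.5% in the 297 of 600 to 800 bp and 14.2% (9 to 20.9%) in the 148 of 800 to 1000 bp. Above the threshold it was 20.7% (12.6 to 31.1%) in the 82 peaks of 1000 to 1200 bp, 34.5% (22.5 to 48.1%) in the 58 of 1200 to 1500 bp, 35.7% in the 56 of 1500 to 2000 bp and 37.0% (23.2 to 52.5%) in the 46 of 2000 bp or more. Next to the threshold, 14 of the 53 peaks of 1000 to 1100 bp had such a neighbour, 26.4% (15.3 to 40.3%), against 8 of the 57 peaks of 900 to 1000 bp, 14.0% (6.26 to 25.8%). These intervals overlapped, as did those of neighbouring width classes, so these counts neither show a step at 1000 bp nor its absence.

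The excess of close neighbours was seen on most chromosomes. Within 1000 bp the odds ratio was 5.73 (2.60 to 12.4) on II, 4.97 (2.33 to 10.5) on V, 4.92 (2.15 to 11.0) on III and 2.62 (1.27 to 5.23) on I. On X (2.63, 0.721 to 7.95) and IV (1.55, 0.435 to 4.51) the interval included 1, with 5 broad peaks having such a neighbour on each. Differences between chromosomes in this ratio were not tested.

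The close neighbours of broad peaks were often broad themselves. Of the 74 broad peaks with a peak within 1000 bp, 42 had a broad one as the nearest, 56.8% (44.7 to 68.2%), and the median width of that neighbour was 1058.5 bp. Of the 243 narrower peaks with such a neighbour, 34 had a broad one, 14.0% (9.89 to 19.0%), with a median neighbour width of 456 bp. All 42 belong to the 25 pairs of broad peaks less than 1000 bp apart, whose members are not always each other's nearest peak. Broad peaks that are each other's nearest both enter the count of 42, while a narrower peak beside a broad one enters once. The counts within 10000 bp share this, so these intervals may be too narrow. Within 10000 bp, 64 broad peaks had another broad peak, 26.4% (21.0 to 32.5%), against 167 narrower peaks, 7.81% (6.71 to 9.03%), an odds ratio of 4.24 (3.01 to 5.94). With a width threshold of 1500 bp this ratio was 2.21 (0.995 to 4.40). With close peaks merged, over 305 regions of 1000 bp or more, it was 1.22 (0.800 to 1.81). Over all distances, both members were broad in 45 of the 436 neighbouring pairs that held a broad peak, 10.3% (7.63 to 13.6%). Counted from each peak, the next peak on either side was broad in 90 of 481 cases for broad peaks (18.7%) and in 391 of 4269 for narrower peaks (9.16%). Where the pair lay less than 1000 bp apart, both were broad in 25 of 59 (42.4%, 29.6 to 55.9%).

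Pairs of broad peaks less than 1000 bp apart numbered 25, with 8 on II, 6 on V, 4 each on I and III, 2 on X and 1 on IV. Of the 8 on II, 5 belonged to a single stretch of close peaks, and 3 lay elsewhere. The closest was on II, where peaks at 10547006 to 10548285 and 10548504 to 10549693 were 218 bp apart. On V a pair at 10716599 to 10718008 and 10718236 to 10720213 was 227 bp apart, with q-values of 2.95e-04 and 3.53e-05. On III, a peak of 2402 bp at 5939181 to 5941582 stood 230 bp from one of 1192 bp, and one of 1632 bp at 9051300 to 9052931 stood 236 bp from one of 1021 bp. Both members of a pair 222 bp apart on chromosome I, at 1834996 to 1836022 and 1836245 to 1837476, were among the 10 lowest q-values of the list (1.17e-40 and 2.20e-38). In other pairs the q-values lay far apart. On IV a peak of 2368 bp at 4468268 to 4470635 had 1.58e-10, and its neighbour of 1032 bp, 316 bp away, had 0.00287.

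Joined where they were less than 1000 bp apart, peaks formed 146 stretches of 2 or more, and 49 of these (33.6%) held a broad peak. Broad peaks were 10.2% of the list, and the share of stretches that this alone would give was not computed. These 49 stretches held 74 broad and 35 narrower peaks. They had a median span of 3040 bp, against 1549 bp in stretches without a broad peak, a difference that the width rule sets in part. In 20 of them at least 2 peaks were broad. The longest stretch ran for 12472 bp on chromosome II, from 10541904 to 10554375, and held 7 peaks, 6 of them broad. These 6 were among the 16 broad peaks of II with a neighbour within 1000 bp. Its peaks were 299 to 2538 bp wide, covered 79.5% of the stretch and were separated by gaps of 218 to 719 bp. Their q-values ran from 8.97e-07 to 0.00194, and 585 or more peaks of the list had a lower one. The next longest stretches spanned 6504 bp on chromosome I at 7078887 to 7085390, 5740 bp on V at 5840483 to 5846222 and 5156 bp on III at 12612301 to 12617456.

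**Figure D5:**
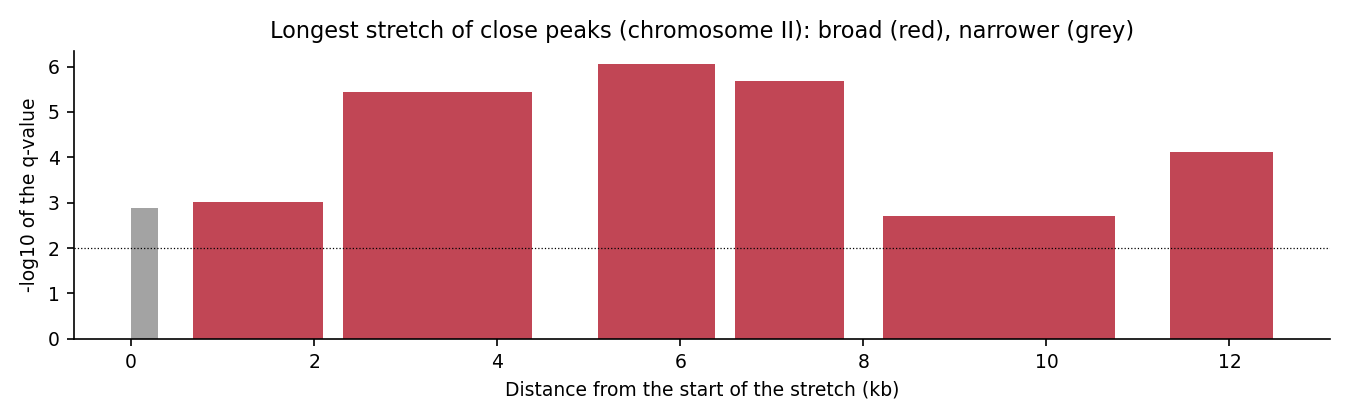
The 7 peaks of the longest stretch of close peaks, on chromosome II, drawn to scale by distance in kb from the start of the stretch, with minus log10 of the q-value as height. The 6 broad peaks are red and the narrower peak, 299 bp wide, is grey; the dotted line marks a q-value of 0.01.

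Broad peaks also occurred alone, and the share of isolated peaks did not differ between the classes beyond counting error. No peak of any width lay within 50000 bp of 16 broad peaks, 6.61% (3.83 to 10.5%), or of 190 narrower peaks, 8.88% (7.71 to 10.2%). At the other extreme, 15 broad peaks (6.20%, 3.51 to 10%) had a peak within 2000 bp on both sides, against 43 narrower peaks (2.01%, 1.46 to 2.70%). Several of the 15 lay in the longest stretch, on chromosome II, so they are not independent and the interval may be too narrow. The farther of a peak's neighbours lay at a median of 39712.5 bp (32083 to 47611 bp) from broad peaks and 46399 bp (44227 to 48986 bp) from narrower ones, with overlapping intervals.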

How the data were processed

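LIN-11::EGFP binding was measured by ChIP-seq in 2 ChIP and 2 input libraries. The authors deposited 1 combined list of 2381 peaks, which PeakSeq called on WormBase WS180, per the file headers; its version, the aligner and the filters are not given in the sources used here. The values are starts, ends and the authors' q-values, with no tag count and no depth, and q-values serve only to describe peaks within the list.

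Widths, positions and distances were computed here with Python 3.11.15, pandas 2.3.3 and SciPy 1.17.1. Broad (1000 bp or more) and narrower peaks were compared by conditional odds ratios with exact 95% intervals, shares by exact Clopper-Pearson intervals, and medians by order-statistic intervals. No p-value was computed, since peaks are not replicates. The interval routines were tested on simulated data with independent draws, which do not cover dependence between neighbouring peaks. The members, lists and comparisons were chosen with earlier results of these data known. Peaks were named by rule: the 10 widest, the 10 with the lowest and the 5 with the highest q-values, the widest per chromosome, the 5 on each side of the threshold and the closest broad pairs; the longest stretches were added after their values were seen. Alternatives changed the threshold, the peaks used, the centre and the distance. The gene table given for reference is of another build (WBcel235) and was not used.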

Additional observations from a re-analysis of the deposited data

How the results depend on the processing

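For the 14 results computed again, 68 of 99 values had the same direction and side of 1, or lay close to the reported value. For 12 an interval that had excluded 1 came to include it, and for 2 the opposite. Another 9 turned to the other side of 1, and 8 moved beyond the interval of the reported value. The odds ratio for a neighbour within 2000 bp ran from 1.47 to 3.99. The 3.99 came from the 1190 peaks of lowest q-value, with neighbours sought among these only. Width and q-value come from the same tags, and 198 of the 242 broad peaks were among them, so the filter itself favours broad neighbours. With a threshold of 800 bp (390 broad peaks), chromosome I gave 0.794, V 1.24 and the left segment 0.781. With 1500 bp (102 broad peaks), the values were 0.617 for I, 0.716 for III, 1.19 for X, 0.710 for the left segment, 2.21 for a broad peak within 10000 bp and 3.59% for pairs of broad peaks. Over the 1190 peaks of lowest q-value they were 0.981 for III, 1.07 for X, 0.721 for the left segment, 12757.5 bp for the nearest peak and 14.6% for pairs. Against narrower peaks of at least 400 bp, I gave 0.736, II 1.07 and III 0.924. Merging peaks less than 1000 bp apart gave 1.01 for I, 0.986 for III, 1.27 for V, 1.47 for a close neighbour, 9969 bp for the nearest peak and 1.22 for a broad peak within 10000 bp. Merging removes close neighbours by construction and changes the members, to 305 regions of 1000 bp or more. The central segment gave 1.48 as the middle 50 percent, 1.45 without chromosome V and 1.11 to 1.24 in the other alternatives. The left segment gave 0.699 without II. Measured between midpoints, the odds ratio within 1000 bp turned to 0.0717, by construction, since the midpoint of a broad peak lies at least 500 bp from its edge. Elsewhere the cause was not tested. Leaving out II or V, a 3000 bp midpoint distance, and the left segment and 1000 bp results were added after the data were seen. No paired analysis was possible because the list combines the replicates, which also prevented leaving out a replicate. Unknown depth means that a stretch without broad peaks is one where none was detected.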

Other observations

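Whole tag numbers were recovered from the q-values of the list. Each q-value was multiplied by its line number and divided by 20869 regions. The product equalled a binomial upper tail, with a chance of 0.5, of 2 whole numbers within a relative tolerance of 1e-11. This held for all 2381 peaks, for 0 peaks with 20868 or 20870 regions, and for all 242 broad peaks with a single pair of numbers. The larger number is read here as ChIP tags and the smaller as input tags. This reading is an inference, the list itself names no tag numbers, and whether input numbers were scaled is not known. Intervals below are exact 95% intervals of medians over peaks.

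On that reading broad peaks held more tags than narrower peaks at a lower ratio of ChIP to input, as a description only. A wider region holds more tags, so the width rule sets the tag numbers in part. Within the broad peaks, Pearson's r with width was 0.696 for ChIP tags and 0.759 for input tags. The median broad peak had 292 ChIP tags (277 to 312) and 171 input tags (158 to 181), and the median narrower peak had 92 and 41. The ratio of ChIP to input tags had a median of 1.75 (1.69 to 1.80) in broad peaks, 2.38 (2.33 to 2.44) in narrower peaks and 2.01 (1.98 to 2.05) in the narrower peaks of at least 400 bp. The ratio stayed under 2 in 175 broad peaks (72.3%), in 588 narrower peaks (27.5%) and in 455 of the 954 narrower peaks of at least 400 bp (47.7%). It reached 3 in 5 broad peaks and 596 narrower peaks, 66 of them at least 400 bp wide. Per kb, broad peaks had a median of 113 input tags (105.2 to 119.6). All narrower peaks had 100 (97.2 to 103.2), and those of at least 400 bp had 111.1 (107.6 to 115.9), so this comparison depended on the narrower peaks used. In ChIP tags per kb the medians were 197.9 (189.4 to 213) in broad peaks, 233.6 (227.6 to 238.6) in all narrower peaks and 232.4 (223.5 to 239.7) in those of at least 400 bp. A q-value limit asks a higher ratio of a peak with fewer tags, and its part in these differences was not tested.

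The highest ratio among broad peaks, 3.42, belonged to chromosome I at 1834996 to 1836022, with 475 ChIP tags and 139 input tags. The lowest, 1.23, belonged to the widest peak, on X at 6738549 to 6744194, with 1080 and 875 tags. The next lowest, 1.29, belonged to a peak of 2538 bp in the longest stretch on chromosome II, where the 7 peaks had ratios of 1.29 to 2.05. By chromosome the median ratio of broad peaks was 2.05 (1.88 to 2.17) on I and 1.68 to 1.77 on the others. Input tags per kb had a median of 136.7 (118.6 to 168.7) in the broad peaks of X and 96.7 (90.3 to 114.4) in those of I. Broad peaks with a peak within 1000 bp had a median ratio of 1.77 (1.67 to 1.87) and the other broad peaks 1.75 (1.68 to 1.81). These differences were not tested.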
